A study of Gallus gallus with 16 samples.

Results

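The inhibin, activin, follistatin and AMH genes of chicken granulosa cells were taken as 9 genes: INHA, INHBA, INHBB, FST, AMH, AMHR2, ACVR2A, ACVR2B and ACVR1B. They were found by gene symbol, each had 1 row, and they make up 9 of the 18151 gene rows of the RNA-Seq files. The 16 libraries were made from primary granulosa cells of White Leghorns hens aged 25 to 30 weeks. poGC are granulosa cells of pre-ovulatory follicles and phGC those of pre-hierarchical follicles. Cells of each kind were cultured for 16 h in Medium 199 with 5% serum, transfected by Lipofectamine with FOXL2-siRNA (KD) or with the nonsense NC-siRNA (CT), and collected 48 h later. This gave 4 groups (poGC-KD and its control poGC-CT, phGC-KD and its control phGC-CT) of 4 libraries each. All libraries, controls included, come from cultured and transfected cells, and a siRNA lowers a transcript without deleting the gene. The paper's methods describe follicles of several hens and call the RNA samples biological duplicates, but no label ties a library to a hen, and p-values measure the spread between these libraries.

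Inhibin and activin are dimers built from shared subunits. The alpha subunit (INHA) joined to a beta subunit gives inhibin, whereas beta subunits (INHBA for beta A, INHBB for beta B) joined to each other give activin. Activin binds the type II receptors ACVR2A or ACVR2B, which recruit the type I receptor ACVR1B. Inhibin competes for the type II receptors, follistatin (FST) binds activin and holds it away from them, and inhibin in the blood lowers the release of FSH by the pituitary. Anti-Müllerian hormone (AMH) signals through its own type II receptor, AMHR2. In the hen, AMH is known as a product of the granulosa of small growing follicles, and inhibin A as one of the large pre-ovulatory follicles. FOXL2 is a forkhead transcription factor of the granulosa cell.

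The knockdown agent is shown because every KD value below rests on it. The second strand of each siRNA pair is printed, with bases 2 to 8 in capitals, the stretch that directs the pairing of a guide strand with its target.
FOXL2-siRNA: aUGAAGCAcucguugaggctt
NC-siRNA: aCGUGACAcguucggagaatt
Both have 21 bases, of which 19 pair with the first strand of the pair.

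FOXL2 itself, given in CPM (counts scaled to library size, with TMM factors over all 16 libraries), stood at 508, 445, 472 and 393 in the poGC-KD libraries against 689, 758, 769 and 724 in poGC-CT. In phGC-KD it stood at 401, 507, 399 and 363 against 472, 497, 682 and 589 in phGC-CT, and here the groups overlapped. FOXL2 fell in poGC by the edgeR test (log2 fold change -0.68, adjusted p = 0.000353), and its log2 fold change of -0.43 in phGC did not pass (unadjusted p = 0.0131, adjusted p = 0.0878). The log2 fold change in poGC minus that in phGC was -0.27. This difference did not pass the interaction test, nor in any of 23 alternatives (adjusted p 0.175 to 0.613). In phGC the fall passed in 4 of 16 alternatives, with DESeq2 and with 1 edgeR model over all libraries (adjusted p = 0.0237 for both), without phGC-KD replicate 2 (0.0492) and without phGC-CT replicate 1 (0.0489). Library totals were 45697479 to 56121795 counts for poGC-KD and 36191442 to 53062138 for poGC-CT. Those of phGC were 29979116 to 44937588 counts with knockdown and 30476674 to 32997177 counts without. Marker sums, here and below, used CPM scaled to library totals without TMM factors. All 7 granulosa markers were detected. Their summed level was 1709 to 1941 CPM in poGC-KD against 1894 to 2040 in its control. In phGC-KD it was 1277 to 1395 CPM against 1208 to 1289 in its control. This list holds FOXL2, the target of the siRNA. In poGC, FOXL2 and STAR (log2 fold change -0.46) were lower by edgeR, GATA4 was higher (0.77) and 4 did not pass. In phGC, GATA4 (0.82) and NR5A1 (0.52) were higher and 5 did not pass. Markers of other cells moved with the groups too. The summed level of 7 theca and stroma markers, of which CYP19A1 lay under 1 CPM in every library, was 742 to 799 CPM in poGC-KD against 1131 to 1222 in its control, and 4723 to 5769 CPM in phGC-KD against 5025 to 5920. The 5 smooth muscle markers summed to 308 to 482 CPM in poGC-KD against 807 to 974 in its control, and to 365 to 418 CPM in phGC-KD against 757 to 836. The 5 endothelial markers summed to 39.1 to 71.8, 42.4 to 71.3, 23.3 to 31.8 and 34.3 to 51.9 CPM in the same order of groups. Of these 5, CDH5 fell in poGC (log2 fold change -1.65, adjusted p = 0.000115, edgeR) and 4 did not pass. CDH5 also fell in phGC (-0.75, adjusted p = 0.0266), where 3 others tested did not pass. That call was lost in 4 of 8 fits that left out 1 library. Leukocyte, erythrocyte and germ cell markers summed to no more than 2.28, 1.06 and 4.63 CPM in any library. Of 5 listed for each, 4 leukocyte, 3 erythrocyte and 5 germ cell markers had a row. The germ cell sum was 1.09 to 2.45 CPM in poGC-KD against 2.86 to 3.23 in its control. GDF9, the 1 germ cell marker that could be tested, fell in poGC (log2 fold change -0.82, adjusted p = 0.0259, edgeR). That call was lost in 4 of 8 fits that left out 1 library. In phGC GDF9 did not pass (0.097). The part of these markers in the results below was not tested. In such bulk samples, fewer cells of a type and less RNA per cell cannot be told apart.

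Levels of different genes were compared by the deposited FPKM, which is scaled by transcript length. In poGC-CT, INHA was the highest of the 9 genes at 32.2 ± 2.15 FPKM (SD, n = 4 here and for the other FPKM values). AMH at 14.2 ± 0.549, INHBA at 11.6 ± 2.80 and ACVR2A at 11.2 ± 0.410 followed, each overlapping its neighbour in this order. ACVR1B had 9.36 ± 0.969 FPKM and FST 2.31 ± 0.493. INHBB at 1.05 ± 0.204 and AMHR2 at 1.04 ± 0.0518 overlapped, and ACVR2B had 0.0403. The alpha subunit and the beta A subunit of inhibin were thus both well above the beta B subunit in the control cells of pre-ovulatory follicles.

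In phGC-CT, AMH led by a wide margin at 485 ± 67.6 FPKM, the rank of 123 among all gene rows by mean FPKM against rank 4523 in poGC-CT. INHA had 15.3 ± 2.28 FPKM and overlapped ACVR2A at 12.5 ± 1.08. ACVR1B stood at 10.8 ± 0.288, FST at 4.28 ± 0.554 and INHBB at 2.89 ± 0.412 FPKM. INHBA at 1.26 ± 0.229 and AMHR2 at 1.10 ± 0.0583 overlapped at the lower end, and ACVR2B was again the lowest at 0.019. INHBB lay above INHBA in phGC-CT in all 4 libraries, the opposite of their order in poGC-CT.

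**Figure D1:**
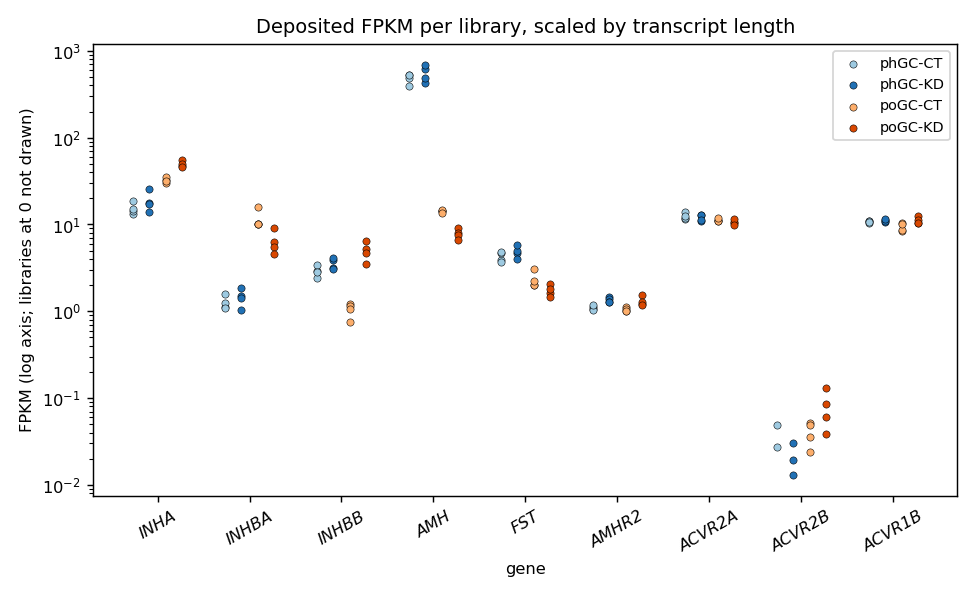
Deposited FPKM of the 9 genes (log axis) in each of the 16 libraries, 1 point a library and 1 colour a group. AMH reaches a mean of 485 FPKM in phGC-CT and 14.2 in poGC-CT, whereas the receptors ACVR2A and ACVR1B stay near 10 in every group and ACVR2B lies at the bottom.

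The follicle stages were compared between the controls (comp. CT, poGC-CT against phGC-CT). Of the 8 genes that passed the filter on low counts, 2 were higher in poGC-CT (INHA and INHBA), 3 were lower (INHBB, AMH and FST) and the 3 receptors AMHR2, ACVR2A and ACVR1B did not pass the test. Among all genes tested 64% passed at an adjusted p under 0.05, 32.5% higher and 31.5% lower, so that 5 of 8 is a share near the background. The median log2 difference was -0.087 over the 8 genes and 0.0036 over all genes. The groups did not overlap for 5 of the 8, against 60.3% of all genes.

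AMH had 48.9, 49.8, 50.9 and 46.6 CPM in poGC-CT and 1260, 1750, 1623 and 1757 CPM in phGC-CT. The groups lay far apart, and the lowest phGC-CT library, replicate 1, was still far above every poGC-CT library. AMH was 32.6-fold lower in poGC-CT (log2 difference -5.03, SE 0.12, adjusted p = 9.51e-09, edgeR), and 0.767% of all genes tested had a larger difference in either direction. INHBA had 43.9, 47.0, 54.6 and 33.9 CPM in poGC-CT and 5.28, 4.20, 4.09 and 4.18 CPM in phGC-CT. Every poGC-CT library was above every phGC-CT library, and the gene was 10.1-fold higher (log2 difference 3.34, SE 0.16, adjusted p = 4.5e-07). INHA had 49.1, 54.3, 55.4 and 50.6 CPM in poGC-CT and 20.2, 22.9, 28.6 and 23.7 CPM in phGC-CT. It was 2.19-fold higher without overlap (log2 difference 1.13, SE 0.10, adjusted p = 1.99e-05).

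INHBB, the other beta subunit, ran the opposite way. It had 3.66, 2.38, 3.41 and 3.88 CPM in poGC-CT and 7.78, 9.37, 7.04 and 7.74 CPM in phGC-CT, and was 2.39-fold lower in poGC-CT (log2 difference -1.26, SE 0.18, adjusted p = 0.000252). FST had 3.15, 3.19, 3.56 and 4.29 CPM in poGC-CT and 6.09, 7.18, 6.88 and 6.11 CPM in phGC-CT, and was 1.85-fold lower in poGC-CT (log2 difference -0.89, SE 0.14, adjusted p = 0.000529). Neither gene had overlapping groups. The theca and stroma markers summed to 1131 to 1222 CPM in poGC-CT and 5025 to 5920 in phGC-CT, the same direction as AMH, INHBB and FST. Most of this sum was COL3A1 and COL1A1, and the list did not move as a whole. Of its 6 genes tested, COL1A1 (log2 difference -3.28), COL3A1 (-2.18) and TCF21 (-2.17) were lower in poGC-CT, DCN was higher (4.64, adjusted p = 7.48e-06, edgeR), and CYP17A1 (0.38) and PDGFRA (0.16) did not pass. DCN stood at 0.0921 to 0.416 CPM in phGC-CT and 6.02 to 8.99 in poGC-CT. The size of its difference thus rests on low counts. TCF21 was low in poGC-CT, at 0.281 to 0.982 CPM. The granulosa markers summed to 1894 to 2040 CPM in poGC-CT and 1208 to 1289 in phGC-CT, the same direction as INHA and INHBA. Of these 7 markers, 5 were higher in poGC-CT (CYP11A1, FSHR, STAR, NR5A1 and FOXL2) and LHCGR did not pass (0.54). GATA4 was lower, close to the threshold and with overlapping groups (-0.25, adjusted p = 0.0496, edgeR). Of 5 smooth muscle markers, DES (-1.62) and TAGLN (-0.73) were lower in poGC-CT, and ACTA2 was higher with overlapping groups (0.26). Of 4 endothelial markers tested, PECAM1 (1.17) was higher and CDH5 (-1.02) lower. The leukocyte marker PTPRC was higher (1.56), at 1.02 to 1.79 CPM in poGC-CT and 0.243 to 0.640 in phGC-CT. These calls stand beside 64% of all genes.

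The receptors differed little between stages. AMHR2 was at 6.87, 7.68, 7.13 and 6.84 CPM in poGC-CT and 7.14, 6.94, 6.91 and 7.65 CPM in phGC-CT, with a log2 difference of -0.0060 and a 95% interval from -0.21 to 0.20. ACVR2A had a log2 difference of -0.042 (interval -0.23 to 0.14) and ACVR1B one of -0.13 (interval -0.32 to 0.056). The stages overlapped for all 3 genes. The intervals limit any difference in these receptors to well under the differences of the 5 ligand and binding protein genes.

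**Figure D2:**
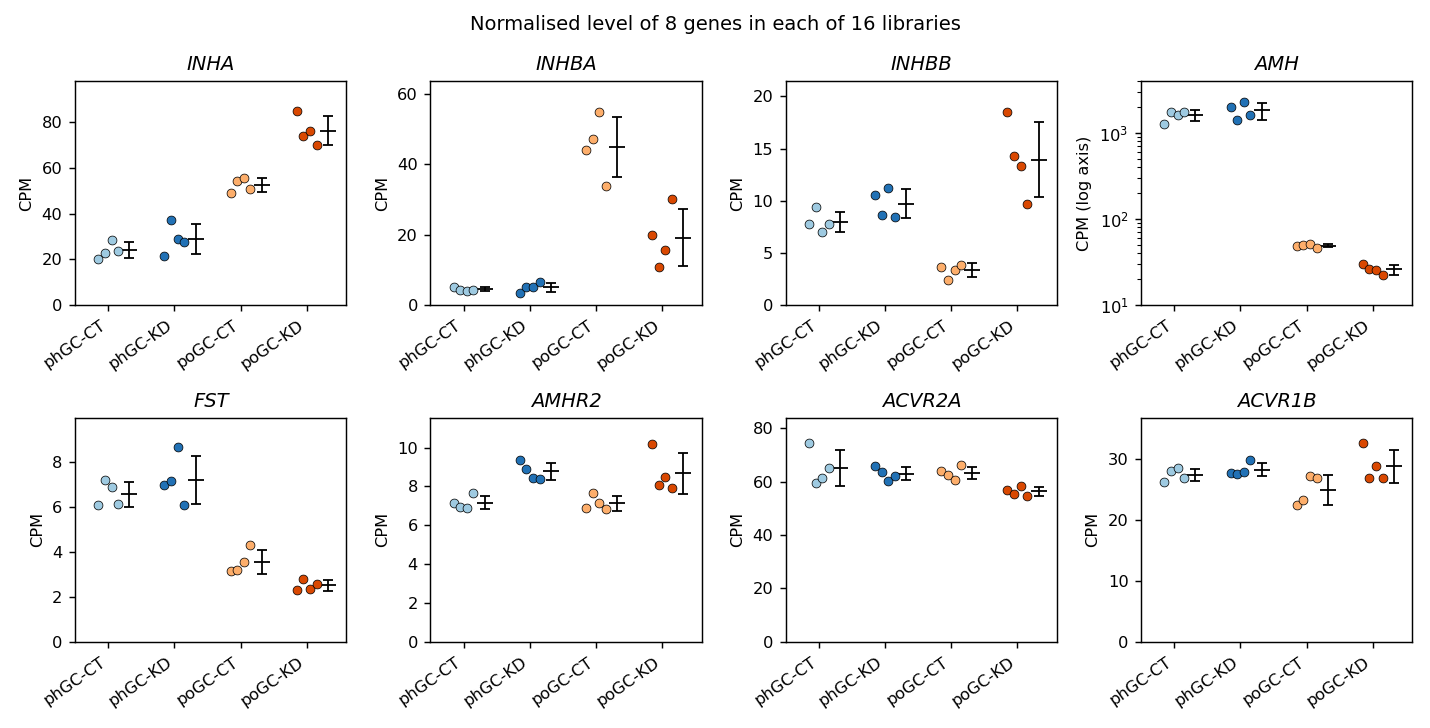
CPM of 8 genes in each library (points), with the mean and SD of each group (black bar, n = 4) and a log axis for AMH. INHBA in poGC-KD (10.9 to 30.2 CPM) lies below poGC-CT (33.9 to 54.6), INHBB in poGC-KD (9.70 to 18.5) lies above poGC-CT (2.38 to 3.88), and the phGC groups overlap for every gene except AMHR2.

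The effect of the knockdown in poGC was read from poGC-KD against poGC-CT (comp. poGC). INHA and INHBB rose, INHBA, AMH, FST and ACVR2A fell, and AMHR2 and ACVR1B did not pass the test. This is 6 of 8 genes tested, beside 28.8% of all genes. The 2 higher stand beside 15.2% of all genes and the 4 lower beside 13.6%. By the criteria of the study, a fold change above 1.5 with an unadjusted p under 0.05, 3 of 8 were DEGs, beside 11.2% of all genes. They were INHBB upward (5.86% of all genes) and INHBA and AMH downward (5.34%). The groups did not overlap for 7 of the 8 genes, against 31.9% of all genes. The median log2 fold change was 0.035 over the 8 genes and 0.0094 over all genes. The controls of this comparison are also the poGC side of comp. CT, and those of the knockdown in phGC are its phGC side.

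INHBB had 18.5, 14.2, 13.3 and 9.70 CPM in poGC-KD and 3.66, 2.38, 3.41 and 3.88 CPM in poGC-CT. All KD libraries were above all CT libraries, with replicate 4 the lowest of the KD group. The gene rose 4.23-fold (log2 fold change 2.08, SE 0.23, adjusted p = 0.000235, edgeR), and 0.529% of all genes had a larger change. INHBA had 19.8, 10.9, 15.8 and 30.2 CPM in poGC-KD and 43.9, 47.0, 54.6 and 33.9 CPM in poGC-CT. The KD group was the more scattered, with a coefficient of variation of 42.8% against 19.1% in CT, and its replicate 4 came close to the lowest control. INHBA fell 2.32-fold (log2 fold change -1.21, SE 0.29, adjusted p = 0.0134), and 2.97% of all genes had a larger change.

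INHA had 84.8, 73.7, 76.1 and 70.1 CPM in poGC-KD and 49.1, 54.3, 55.4 and 50.6 CPM in poGC-CT. It rose 1.47-fold without overlap (log2 fold change 0.56, SE 0.070, adjusted p = 0.000541, edgeR), just under the fold threshold of 1.5. AMH had 30.3, 26.5, 25.3 and 22.1 CPM in poGC-KD and 48.9, 49.8, 50.9 and 46.6 CPM in poGC-CT. Every KD library was below every CT library, and AMH fell 1.86-fold (log2 fold change -0.90, SE 0.092, adjusted p = 0.000175), from a level that was already far under that of phGC.

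FST had 2.31, 2.78, 2.33 and 2.59 CPM in poGC-KD and 3.15, 3.19, 3.56 and 4.29 CPM in poGC-CT. The groups did not overlap (log2 fold change -0.49, SE 0.14, adjusted p = 0.0327, edgeR). ACVR2A, the type II activin receptor, had 56.9, 55.6, 58.5 and 54.7 CPM in poGC-KD and 64.0, 62.7, 60.6 and 66.2 CPM in poGC-CT, a small fall without overlap (log2 fold change -0.15, SE 0.046, adjusted p = 0.0374). Both calls were close to the threshold. That of FST was lost without poGC-KD replicate 1, 3 or 4 or poGC-CT replicate 3 or 4 (adjusted p 0.0564 to 0.0852), and that of ACVR2A without poGC-KD replicate 2 or 4 or poGC-CT replicate 1 or 4 (0.0659 to 0.0752). Limma's test of the FPKM values lost both as well.

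AMHR2 had 10.2, 8.05, 8.49 and 7.93 CPM in poGC-KD and 6.87, 7.68, 7.13 and 6.84 CPM in poGC-CT. The groups did not overlap, yet the test was not passed (log2 fold change 0.30, SE 0.10, adjusted p = 0.059, edgeR). AMHR2 passed in 1 of 16 alternatives, which was not a fit that left out 1 library. ACVR1B, the type I activin receptor, had 32.5, 26.8, 28.9 and 26.9 CPM in poGC-KD and 22.3, 23.3, 27.2 and 26.8 CPM in poGC-CT. The groups overlapped, with a log2 fold change of 0.22 (95% interval 0.011 to 0.43, adjusted p = 0.11). In the same libraries the smooth muscle markers summed to 308 to 482 CPM with knockdown and 807 to 974 without, and the theca and stroma markers to 742 to 799 and 1131 to 1222. Most of these sums was ACTA2 and COL3A1, and neither list moved as a whole. Of 5 smooth muscle markers, ACTA2, TAGLN and CNN1 were lower with knockdown, MYH11 was higher (log2 fold change 0.80, adjusted p = 0.0454, edgeR) and DES did not pass (-0.0090). Of 6 theca and stroma markers tested, COL3A1, DCN, CYP17A1 and TCF21 were lower, COL1A1 was higher (0.66, adjusted p = 0.0294) and PDGFRA did not pass. TCF21 was near the limit of detection, at 0 to 0.263 CPM with knockdown and 0.281 to 0.982 without. Of the opposite calls, that of MYH11 held on leaving out poGC-KD replicate 4 or poGC-CT replicate 3 and was lost without any other library (adjusted p 0.074 to 0.107). That of COL1A1 held without poGC-KD replicate 1, 2 or 4 and was lost without any other (0.0527 to 0.0733). CNN1 lost its call in 6 of 8 such fits (0.0532 to 0.0743) and TCF21 in 5 of 8 (0.0593 to 0.0851). Each of the 7 genes without overlap had p = 0.0286 in a two-sided exact permutation test, the smallest that 4 libraries against 4 can give (70 ways). Every gene without overlap gets this value, so it only restates the lack of overlap.

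ACVR2B, the second type II activin receptor, was near the limit of detection and was left out of the tests. It had 15, 5, 11 and 7 counts in poGC-KD, 3, 6, 6 and 3 in poGC-CT, 2, 3, 0 and 1 in phGC-KD and 4, 2, 0 and 0 in phGC-CT. A count of 0 allows up to 3 counts, which is 0.0852 CPM in phGC-KD replicate 3 and 0.0932 and 0.0921 CPM in phGC-CT replicates 3 and 4, for counting error only. A difference was not detectable at this depth, and with no filter on low counts the log2 fold change in poGC was 0.95 (SE 0.49, adjusted p = 0.225, edgeR). In the RefSeq annotation GRCg7b, which is not the build of the files, ACVR2B overlaps EXOG, and AMH overlaps LOC121107741. EXOG had 295 to 632 counts a library. Whether the build of the files holds these overlaps was not tested. If it does, reads in them cannot be told apart, since the strand setting of the counting is not stated.

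The knockdown in phGC (comp. phGC, phGC-KD against phGC-CT) gave no call by edgeR among the members, 0 of 8 tested beside 9.97% of all genes. At an unadjusted p under 0.05, 1 of 8 passed, AMHR2, beside 26.3% of all genes (edgeR, unadjusted p = 0.0167). Its p of 0.0286 in the exact permutation test is the one that any gene without overlap gets. DESeq2 and limma on FPKM called 0 as well, and a single edgeR model over 16 libraries called 1, AMHR2 (adjusted p = 0.038). AMHR2 had 9.36, 8.89, 8.44 and 8.41 CPM in phGC-KD and 7.14, 6.94, 6.91 and 7.65 CPM in phGC-CT. It was the 1 gene of 8 without overlap (18.3% of all genes), with a log2 fold change of 0.29 (SE 0.097, adjusted p = 0.101). The median log2 fold change was 0.18 over the 8 genes and -0.0058 over all genes. In the same libraries all 5 smooth muscle markers had negative log2 fold changes. TAGLN (-1.17) and ACTA2 (-1.05) passed by edgeR, and MYH11 (-1.53), DES (-0.64) and CNN1 (-0.44) did not. Of 6 theca and stroma markers tested, TCF21 fell (-2.46) and 5 did not pass.

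The 5 ligand and binding protein genes overlapped with their controls in phGC. AMH had 2006, 1411, 2300 and 1601 CPM in phGC-KD, within or above the range of the phGC-CT libraries at 1260 to 1757. Its log2 fold change was 0.19, with a 95% interval from -0.18 to 0.55. INHBB had 10.6, 8.63, 11.2 and 8.41 CPM in phGC-KD against 7.04 to 9.37 in phGC-CT, a log2 fold change of 0.27 (interval -0.038 to 0.58). INHBA had 3.54, 5.14, 5.09 and 6.51 CPM in phGC-KD against 4.09 to 5.28 in phGC-CT, a log2 fold change of 0.18 (interval -0.26 to 0.62). INHA gave 0.26 (interval -0.12 to 0.65) and FST 0.13 (interval -0.18 to 0.43). The upper bound for INHBB in phGC thus lay under its lower bound in poGC, 1.57. The receptors ACVR2A (-0.057, interval -0.24 to 0.13) and ACVR1B (0.038, interval -0.12 to 0.19) stayed within narrow limits. FOXL2 itself had an adjusted p of 0.0878 in this comparison (edgeR) and passed in 4 of 16 alternatives, with 0.0237 as the lowest adjusted p.

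Whether the knockdown acted differently in the 2 cell types was tested by the interaction term, the log2 fold change in poGC minus that in phGC. It passed for 4 of 8 genes, beside 9.25% of all genes, 1 upward (4.47% of all genes) and 3 downward (4.78%). INHBB differed by 1.78 (SE 0.27, adjusted p = 0.000647, edgeR), INHBA by -1.42 (SE 0.37, adjusted p = 0.0242), AMH by -1.11 (SE 0.20, adjusted p = 0.00263) and FST by -0.64 (SE 0.19, adjusted p = 0.0485). INHA passed the test in poGC and not in phGC, but the difference between the cell types, 0.27, did not pass (interval -0.14 to 0.68, adjusted p = 0.457). For AMHR2 the difference was -0.012 (interval -0.29 to 0.26), and its log2 fold changes in poGC and phGC were 0.30 and 0.29. The INHBA difference lost its call without poGC-KD replicate 3, poGC-CT replicate 3, phGC-KD replicate 4 or phGC-CT replicate 2 or 4 (adjusted p 0.0505 to 0.0514). The FST difference lost it in 12 of the 16 fits that left out 1 library (adjusted p 0.0587 to 0.105), the exceptions being poGC-KD replicate 2, poGC-CT replicates 1 and 2 and phGC-KD replicate 4. Median differences were -0.065 over the 8 genes and -0.014 over all genes. The interaction also passed for 2 of 7 granulosa markers, STAR (-0.93) and NR5A1 (-0.46). It passed for 2 of 6 theca and stroma markers tested, CYP17A1 (-1.07) and COL3A1 (-0.79). Of 5 endothelial markers CDH5 passed (-0.92), and of 5 smooth muscle markers 0 passed. Over 23 alternatives the call was lost in 3 for CYP17A1 and 5 for CDH5. The part of these markers in the differences of the members was not tested.

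**Figure D3:**
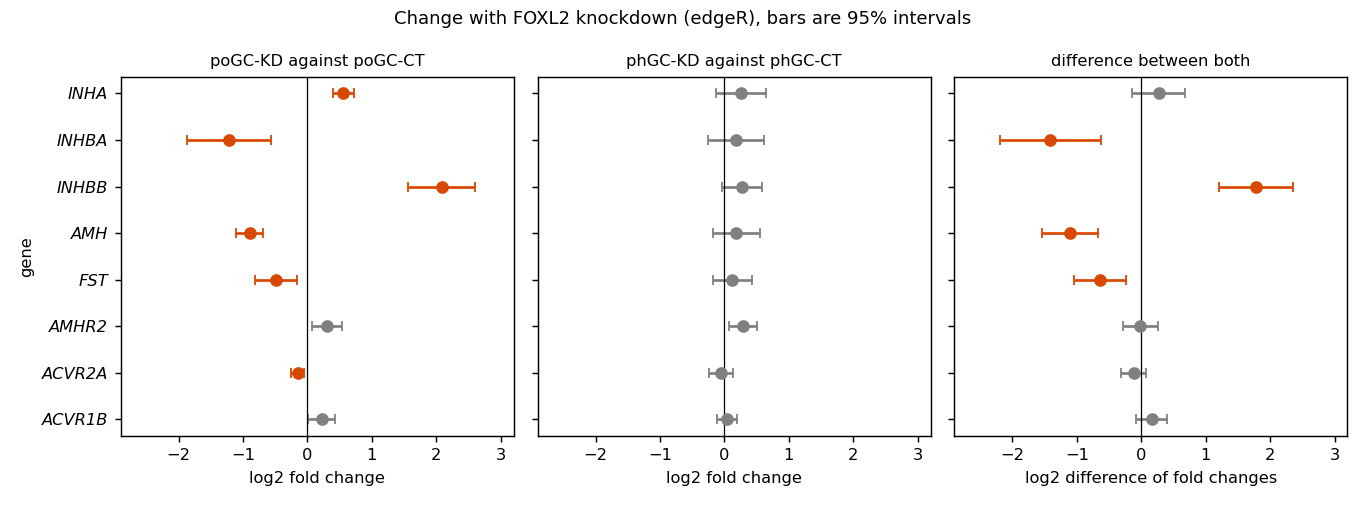
Log2 fold change with FOXL2 knockdown in poGC (left) and phGC (middle) and their difference (right) for 8 genes, with 95% intervals, orange where the adjusted p was under 0.05. INHBB (2.08) and INHBA (-1.21) lie farthest from 0 in poGC, and every interval in phGC except that of AMHR2 includes 0.

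The balance of the subunits was then read within each library. The ratio of INHBA to INHBB counts ran from 8.74 to 19.7 in poGC-CT and from 0.765 to 3.11 in poGC-KD, without overlap, and the highest KD library was replicate 4. In phGC-CT it ran from 0.448 to 0.679 and in phGC-KD from 0.335 to 0.774, with overlap. On the log2 scale the means were 3.75 ± 0.51 in poGC-CT, 0.40 ± 0.87 in poGC-KD, -0.85 ± 0.25 in phGC-CT and -0.96 ± 0.52 in phGC-KD (SD, n = 4). Per length, INHBB made up 8.44% ± 1.95 of the summed FPKM of both beta subunits in poGC-CT, 44.6% ± 11.1 in poGC-KD, 69.6% ± 4.98 in phGC-CT and 70.9% ± 7.36 in phGC-KD (SD, n = 4). In these shares poGC-KD lay between poGC-CT and both phGC groups. The FPKM of INHBA did not follow its counts in every poGC library. In poGC-KD, replicate 2 had 10.9 CPM and 5.53 FPKM, and replicate 3 had 15.8 CPM and 4.56 FPKM. In poGC-CT, replicate 2 had 47.0 CPM and 10.3 FPKM, and replicate 4 had 33.9 CPM and 10.1 FPKM. The size of the shares in poGC thus depends on the scaling of FPKM, and the cause of this mismatch was not tested.

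The ratio of INHA to the summed INHBA and INHBB counts ran from 0.954 to 1.34 in poGC-CT and from 1.76 to 2.93 in poGC-KD, without overlap. In phGC it was 1.55 to 2.57 without knockdown and 1.53 to 2.70 with it. The ratio of FST to the summed beta subunits was 0.0614 to 0.113 in poGC-CT and 0.0603 to 0.111 in poGC-KD, nearly the same range, against 0.466 to 0.618 in phGC-CT and 0.406 to 0.531 in phGC-KD. The ratio of FST counts to beta subunit counts was thus lower in every poGC library than in every phGC library. Counts are not scaled by transcript length, so these ratios compare groups and give no amounts of one transcript per another. These ratios are built from genes described above and are given as a description, without a test.

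**Figure D4:**
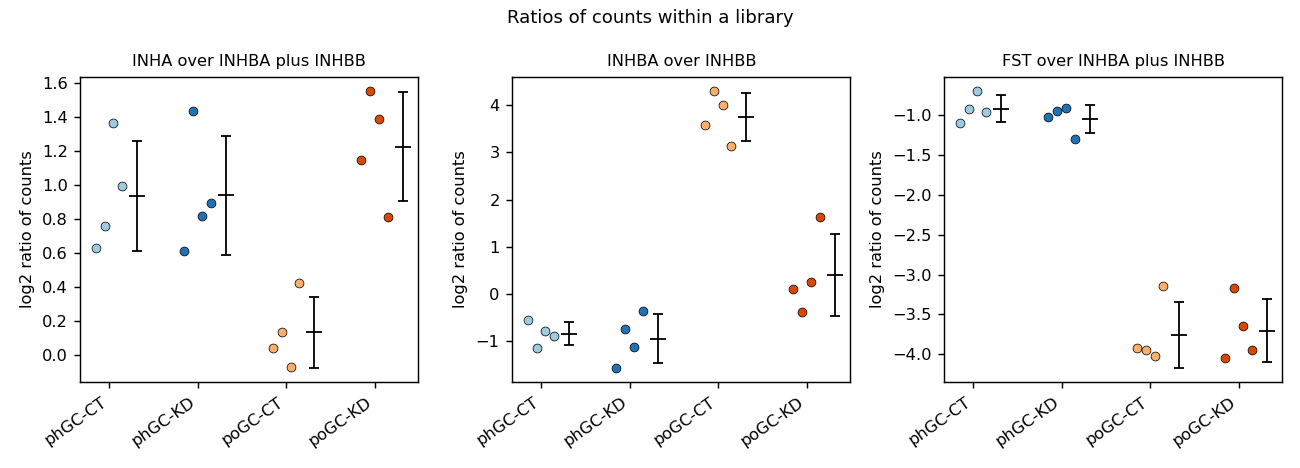
Log2 ratio of counts within each library (points) with the mean and SD of each group (n = 4), for INHA over both beta subunits, INHBA over INHBB, and FST over both beta subunits. The mean log2 ratio of INHBA to INHBB is 3.75 in poGC-CT and 0.40 in poGC-KD, while the phGC groups overlap at -0.85 and -0.96.

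Other genes of activin and inhibin signalling were read from a list of 22, of which 18 had a row. In poGC, 14 could be tested, and 2 rose and 2 fell, a share near the 28.8% of all genes called. SMAD2, which carries the activin signal to the nucleus, rose (log2 fold change 0.77, adjusted p = 1.87e-05, edgeR), and so did FURIN, a convertase that cuts TGF-β family precursors (0.23, adjusted p = 0.0209). The FURIN call was lost without poGC-KD replicate 3 or poGC-CT replicate 1, 3 or 4 (adjusted p 0.0518 to 0.0668). PCSK5, another such convertase (-0.67, adjusted p = 0.000334), and TMEFF2, a membrane protein with follistatin-like domains (-0.44, adjusted p = 0.000682), fell, though PCSK5 lost its call in limma's test of the FPKM values. The list's median was -0.014. In phGC, 15 were tested, 0 rose and 3 fell, beside 9.97% of all genes called, with a median of -0.15. They were WFIKKN1, which binds TGF-β family ligands (-1.44, adjusted p = 0.000578), TMEFF2 (-0.50, adjusted p = 0.0201) and FSTL1, a secreted follistatin-like protein (-0.35, adjusted p = 0.00599). The TMEFF2 call in phGC was lost without phGC-KD replicate 1 or phGC-CT replicate 2 or 4 (0.0583 to 0.064). The interaction passed for 2 of 15, beside 9.25% of all genes, WFIKKN1 (1.61, adjusted p = 0.00124) and FSTL1 (0.43, adjusted p = 0.000682).

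Between the controls, 4 of 14 genes of that list were higher in poGC-CT and 4 lower, a share below the 64% of all genes called, with a median of -0.16. SMAD2 was 9.42-fold higher (adjusted p = 1.41e-07, edgeR), and BAMBI, a decoy receptor, 2.90-fold (adjusted p = 2.17e-07). SMAD3 (log2 difference 1.15) and TMEFF2 (1.00) were also higher. WFIKKN1 was 6.26-fold lower (adjusted p = 1.18e-05) and PCSK6 4.78-fold lower (adjusted p = 8.59e-07), followed by FSTL1 (-1.65) and PCSK5 (-0.95).

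The 10 genes of AMH and BMP-type signalling could all be tested, and 4 passed in poGC and 3 in phGC, beside 28.8% and 9.97% of all genes. In poGC, ID1, a target of BMP-type SMADs, rose (0.73, adjusted p = 0.000823, edgeR), while the type I receptor ACVR1 (-0.52, adjusted p = 0.000159), SMAD1 (-0.36, adjusted p = 0.00696) and ID2 (-0.34, adjusted p = 0.0151) fell. In phGC, SMAD5 (0.66, adjusted p = 0.024) and ID3 (0.72, adjusted p = 0.0362, groups overlapping, named after its values were seen) rose and ACVR1 fell (-0.58, adjusted p = 0.00276). The SMAD5 call was lost without phGC-KD replicate 1 or 3 or phGC-CT replicate 2, 3 or 4 (0.052 to 0.0663) and in limma's test of FPKM. ACVR1 thus fell with the knockdown in both cell types, and the difference between them was 0.040 (adjusted p = 0.859). The interaction passed for SMAD1 (-0.39, adjusted p = 0.0248) and ID2 (-0.42, adjusted p = 0.0303), 2 of 10 beside 9.25% of all genes. That of SMAD1 was lost without poGC-CT replicate 1 or phGC-CT replicate 2, 3 or 4 (0.0515 to 0.0602), and that of ID2 without poGC-CT replicate 2, phGC-KD replicate 2 or 3 or phGC-CT replicate 2 (0.0541 to 0.0611). The medians of the list were -0.085 in poGC and 0.36 in phGC. Between the controls 3 were higher in poGC-CT (SMAD5, BMPR1B and ID2) and 3 lower (ID3, ACVR1 and ID1), near the 64% of all genes called, the widest being SMAD5 at 2.34 and ID3 at -2.44 on the log2 scale.

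A list of 12 regulators of gonad genes, several known as activators or repressors of AMH in mammals, gave 2 rises and 2 falls in poGC, near the 28.8% of all genes called. NR0B1 (1.09, adjusted p = 0.00194, edgeR) and GATA4 (0.77, adjusted p = 7.04e-05) rose, and SOX8 (-0.83, adjusted p = 0.000902) and WT1 (-0.53, adjusted p = 0.0261) fell. The WT1 call was lost without poGC-KD replicate 2 or 4 or poGC-CT replicate 4 (0.0534 to 0.0594) and in limma's test of FPKM. In phGC, where 11 were tested, NR0B1 (1.25, adjusted p = 0.00555), GATA4 (0.82, adjusted p = 0.00325) and NR5A1 (0.52, adjusted p = 0.0025) rose and 0 fell, beside 9.97% of all genes called. The interaction passed for 3 of 12, beside 9.25% of all genes, which were WT1 (-0.84, adjusted p = 0.00669), SOX8 (-0.81, adjusted p = 0.0181) and NR5A1 (-0.46, adjusted p = 0.00644). Medians were -0.055 in poGC and 0.23 in phGC. Between the controls 6 of 12 were higher in poGC-CT and 4 lower, beside 64% of all genes called. Lower there, as AMH was, were NR0B1 (9.72-fold, adjusted p = 1.6e-07, edgeR) and WT1 (4.13-fold, adjusted p = 4.37e-06). SOX8 (1.58-fold) and GATA4 (1.19-fold, groups overlapping) were lower as well. Higher, opposite to AMH, were ESR1 (6.25-fold, scattered from 6.39 to 24.8 CPM in poGC-CT) and FSHR, the FSH receptor (2.40-fold, adjusted p = 1.23e-05). So were GATA6 (2.05-fold), SOX9 (1.65-fold, groups overlapping) and NR5A1 (1.34-fold). DMRT1 was higher too, at 2.95 to 3.93 CPM against 0 to 0.0961 in phGC-CT.

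The genes whose log2 CPM ran most like a member over the 16 libraries were found among 14775 rows by Pearson's r, as a description, since the points share group, depth and TMM factor. For INHA they were LOC107053832 (0.993), OLFML2A (0.982) and OGG1 (0.981), and r after subtracting the group means was 0.937, 0.897 and 0.689. For INHBB they were CADM1 (0.948), WASF1 (0.943) and GINS1 (0.943), with 0.713, 0.608 and 0.395 left within groups. For INHBA they were SENP2 (0.974), ADGRG3 (0.974) and PRKCD (0.970), with 0.476, 0.479 and 0.338 left. For AMH they were PCBP3, LOC423752 and TOR3A, all at 0.996, with 0.527, 0.277 and 0.332 left. For FST they were ZNF706 (0.971), LOC418170 (0.967) and PCBP2 (0.967), with 0.270, 0.550 and 0.483 left. The highest values left within groups were those of LOC107053832 and OLFML2A with INHA, followed by CADM1 with INHBB.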

How the data were processed

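RNA-Seq was made from 16 libraries of primary granulosa cells. The authors' paper names TopHat2 as the aligner, whereas the submitters' processing notes name HISAT2 2.1.0, StringTie 1.3.4d and DESeq2 1.26.0, and which of them made the files could not be told. For each library the authors deposited unnormalised raw counts by gene and an FPKM value per gene, scaled by transcript length and depth. The counter and its strand setting are not given in the sources used here.

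Counts were tested by edgeR 4.0.16 (R 4.3.3) with the quasi-likelihood test, TMM factors and filterByExpr, and p-values were adjusted by Benjamini-Hochberg over all genes tested. The 95% intervals came from the fitted SE. The interaction came from a model of all 16 libraries. FPKM served for levels between genes. Single values were tested by two-sided exact permutation. Each pair of libraries of a group was compared for duplication, and the smallest chi-square per degree of freedom was 24.8. Every pair thus differed by more than counting noise, and all libraries were kept. The comparison cannot tell whether libraries share a hen or a culture. The edgeR fits were tested on simulated counts with planted changes, and the other steps were not tested in this way. Alternatives were upper-quartile factors, DESeq2 1.42.0, at least 1 count, at least 10 counts in every library, limma 3.58.1 on log2 of FPKM plus 0.1 or 1, a replicate block, 1 model over all libraries, the fold criterion, and leaving out each library.

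All 9 genes are named. Of the other lists, genes that passed the test without overlap were to be named, and for 5 genes the 3 most alike. The members and lists were chosen with earlier results of these data known. All 9 symbols matched the RefSeq table (GRCg7b), which is not the build of the files. Its coordinates served only to look for genes that overlap a member.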

Additional observations from a re-analysis of the deposited data

Results flagged for a closer look

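Among 40 groups of 4 libraries (10 genes, the 9 and FOXL2), 2 held a library far from the other three by Dixon's criterion, and chance gives about 1 in 20. INHBA stood at 5.28 CPM in phGC-CT replicate 1 against 4.09 to 4.20 in the others. ACVR1B stood at 29.8 CPM in phGC-KD replicate 4 against 27.5 to 27.9.

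The response to the knockdown differed between poGC and phGC by the interaction term (edgeR, adjusted p under 0.05) for INHBA (-1.42), INHBB (1.78), AMH (-1.11) and FST (-0.64). It also differed for FSTL1 (0.43), WFIKKN1 (1.61), SMAD1 (-0.39), ID2 (-0.42), NR5A1 (-0.46), WT1 (-0.84) and SOX8 (-0.81). These are log2 fold changes in poGC minus those in phGC. Over 23 alternatives the call was lost in 6 for INHBA, 17 for FST, 7 for SMAD1 (adjusted p up to 0.253) and 5 for ID2 (up to 0.0627). The fall of FOXL2 itself was -0.68 in poGC and -0.43 in phGC, a difference of -0.27 that did not pass. Its part in the differences of the other genes was not tested.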

How the results depend on the processing

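In poGC, INHA, INHBA, INHBB and AMH kept direction and call under all 16 alternatives, with adjusted p no higher than 0.00894, 0.0434, 0.0038 and 0.002. The log2 fold change of INHBA ran from -1.53 to -0.79 over these alternatives. FST and ACVR2A lost their calls in 8 of 16 each. Under the fold criterion 3 members and 1611 genes were called in poGC and 5877 genes in comp. CT. In phGC, DESeq2 called 2273 genes, and 1 model over 16 libraries called 2575 genes and 1 member. Leaving out 1 library gave 3293 to 3897 genes and 4 to 6 members in poGC, and 662 to 1949 genes and 0 members in phGC. For the interaction it gave 1061 to 1857 genes and 2 to 4 members. INHBB and AMH kept the interaction call in all 23 alternatives, INHBA lost it in 6 and FST in 17.

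Signs turned only near 0. In comp. phGC, ACVR2A ran from -0.10 to 0.013 on leaving out 1 library. In comp. CT, AMHR2 was 0.0071 with at least 1 count and 0.0058 with at least 10 counts, and ran from -0.039 to 0.026 on leaving out 1 library, as ACVR2A did from -0.085 to 0.031. The AMHR2 interaction was 0.0042 with upper-quartile factors, 0.029 and 0.016 with limma on FPKM plus 0.1 and 1, and ran from -0.099 to 0.025. The causes were not tested. With upper-quartile factors ACVR1B passed in comp. CT (-0.22, adjusted p = 0.0388). FURIN and ID2 in poGC and TMEFF2 in phGC lost their calls with the block below.

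No clear pairing of libraries by replicate number was seen. With 4 libraries a group, this cannot tell whether equal numbers share a hen or a culture. The mean correlation of libraries of the same number was -0.039 in poGC, -0.0043 in phGC and 0.039 in comp. CT. For libraries of other numbers it was 0.013, 0.0014 and -0.013. In this order, 0, 1 and 2 of 4 libraries went best with their own number. With the number as a block, the genes called were 3146, 1066 and 8752 in these comparisons, and the members 4, 0 and 5. For the interaction 1054 genes and 2 members (INHBB and AMH) were called.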
